A study of Sus scrofa with 25 samples.

Results

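The 10 genes of insulin signalling and glucose uptake, INSR, IRS1, IRS2, PIK3R1, AKT1, AKT2, TBC1D4, SLC2A4, HK2 and TXNIP, were followed in pig muscle across 3 levels of vitamin D3 in feed. They were found by symbol in the Ensembl pig gene name table. Of the 10 symbols, 9 had an identifier among the 25879 gene identifiers that all the files hold. AKT1 had none and was not analysed here. Of the 9, 8 passed the filter on low counts that left 10992 genes for testing, and IRS2 did not.

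Sows were Polish Large White and boars Landrace. From day 85 of life and for 90 days their offspring ate feeds of equal protein and energy that held 0, 5000 or 10000 IU of vitamin D3 per kg. There were 8 pigs on 0 IU/kg (control), 8 on 5000 IU/kg (D5000) and 9 on 10000 IU/kg (D10000), each housed in a straw-bedded pen of its own, and each litter was spread over the 3 diets. One library was made per pig with QuantSeq, a method that reads the 3' end of messenger RNA, so that 1 molecule gives about the same number of reads whatever its length. The muscle, the sex of the pigs and the litter of each pig are not given in the sources used here.

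In muscle, insulin binds its receptor, which phosphorylates the IRS adaptor proteins. These recruit phosphoinositide 3-kinase, and the lipid it makes activates AKT. AKT phosphorylates TBC1D4, which lets vesicles carrying the glucose transporter GLUT4 reach the cell surface, and hexokinase then traps the glucose that enters. Much of this control lies in phosphorylation and in the movement of proteins, which transcript counts do not measure.

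Libraries held 3310507 to 15177976 counts assigned to genes. Levels are given as CPM, counts per 1000000 gene-assigned counts of the library. CPM is not scaled by TMM, the scaling used in the tests, whose factors ran from 0.679 to 1.54. Ranks and ranges of libraries in CPM can therefore differ from those with TMM scaling. The share of reads assigned to genes was 58.4% ± 8.76 (SD, n = 8) in control, 51.8% ± 12.6 (SD, n = 8) in D5000 and 53.5% ± 13.1 (SD, n = 9) in D10000. One library, D10000 replicate 27, stood apart: the 9 of 11 fat cell markers with an identifier summed to 25340 CPM, against 299 to 907 CPM in the other 24 libraries, and its ACTA1, skeletal muscle actin, was at 10029 CPM against at least 27735 CPM in each of the others. Transcripts made by liver were found in every library, with the 11 of 13 markers that had an identifier summing to 3557 to 40461 CPM. In bulk RNA, fewer cells of a type and less RNA per cell cannot be told apart.

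No member passed the test in any comparison of diets. At an adjusted p under 0.05 in edgeR's quasi-likelihood test, 0 of the 8 tested members were called for 5000 IU/kg against control, where 0% of all tested genes were called, and the same held for 10000 IU/kg against control (0%), for 10000 against 5000 IU/kg (0%) and for both doses jointly (0%). At an unadjusted p under 0.05 the members called were 0, 0 and 1 in the 3 contrasts, against 3.38%, 2.39% and 2.94% of all tested genes, and 0 in the joint test, against 2.66%. DESeq2 and limma-voom also called 0 genes. The contrasts with control share the control pigs, and the contrasts with D10000 share those pigs, so that the signs in different contrasts are not independent.

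INSR (ENSSSCG00000013566) encodes the insulin receptor, a tyrosine kinase. The lowest, median and highest INSR levels were 23.4, 46.4 and 81.2 CPM in control, 40.8, 47.8 and 93.6 CPM in D5000, and 26.5, 52.6 and 70.4 CPM in D10000. The ranges of the 3 diets overlapped widely, and 4 control libraries lay below every D5000 library. INSR differed from control by 1.22-fold at 5000 IU/kg (95% interval 0.847 to 1.77) and by 1.00-fold at 10000 IU/kg (0.702 to 1.44). It was among the least variable of the tested genes: its biological coefficient of variation between pigs was 0.382, the 5.57th percentile of tested genes, which had a median of 0.585.

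IRS1 (ENSSSCG00000025729) encodes the adaptor through which the receptor reaches phosphoinositide 3-kinase. Its lowest, median and highest levels were 40.6, 71.9 and 164 CPM in control, 36.9, 87.1 and 259 CPM in D5000, and 11.1, 105 and 173 CPM in D10000. In CPM, the medians stood in the order of the doses, but the ranges overlapped, and 6 of 8 D5000 and 6 of 9 D10000 libraries were above the control median. The fold change was 1.36 at 5000 IU/kg (95% interval 0.803 to 2.30) and 1.10 at 10000 IU/kg (0.659 to 1.83). IRS1 had the widest span of the tested members in CPM, 23.3-fold between its highest library, D5000 replicate 18, and its lowest, D10000 replicate 27. Without the latter its span was 7.04-fold, below those of TXNIP (8.60-fold), PIK3R1 (7.60-fold) and HK2 (7.51-fold). D5000 replicate 18 had the lowest share of reads assigned to genes (24.9%). With TMM scaling D5000 replicate 6 was the highest in IRS1 (log2 CPM 7.58, against 7.40 in D5000 replicate 18).

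IRS2 (ENSSSCG00000034763), the other main adaptor of the receptor, was almost absent from the counts. It was at 0 in 22 of 25 libraries: all 8 of control, 7 of 8 of D5000 and 7 of 9 of D10000. In those libraries 3 counts, the limit that a count of 0 allows, correspond to 0.198 to 0.613 CPM, and over the pooled control libraries to 0.0445 CPM. D5000 replicate 18 held 44 counts (10.2 CPM, exact 95% interval 7.39 to 13.6), D10000 replicate 2 held 9 (2.72 CPM, 1.24 to 5.16) and D10000 replicate 20 held 1 (0.0961 CPM, 0.00243 to 0.535). The intervals and limits cover counting error only. The 2 libraries with more than 1 count were those with the lowest shares of reads assigned to genes, 24.9% and 28.4%, and the part of that share in the counts was not tested.

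PIK3R1 (ENSSSCG00000016958) encodes the regulatory subunit that holds the catalytic subunit of phosphoinositide 3-kinase and docks on IRS proteins. PIK3R1 had lowest, median and highest levels of 37.1, 60.5 and 75.9 CPM in control, 14.7, 49.1 and 100 CPM in D5000, and 34.1, 53.4 and 180 CPM in D10000. In CPM, all 8 control libraries fell inside the range of D5000, and the highest value belonged to D10000 replicate 27. The fold change was 0.792 at 5000 IU/kg (95% interval 0.537 to 1.17) and 1.08 at 10000 IU/kg (0.739 to 1.57). Without D10000 replicate 27, the log2 fold change at 10000 IU/kg went from 0.11 to -0.10.

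AKT2 (ENSSSCG00000002989) encodes the AKT kinase most tied to glucose uptake in muscle and fat. Its lowest, median and highest levels were 31.8, 58.3 and 86.0 CPM in control, 32.6, 49.2 and 74.3 CPM in D5000, and 34.8, 60.3 and 442 CPM in D10000. Apart from D10000 replicate 27, whose 442 CPM was 7.88 times the median of the other libraries, the highest D10000 library was at 82.0 CPM and the 3 ranges overlapped almost fully. AKT2 was the member with the smallest p: for 10000 against 5000 IU/kg its log2 fold change was 0.86 ± 0.35 (SE), with an unadjusted p of 0.0186 and an adjusted p of 0.999 in edgeR. Without D10000 replicate 27 that difference was 0.23, and the difference of 10000 IU/kg from control went from 0.51 to -0.12. DESeq2, given all libraries and run with its default handling of outlying counts, gave -0.13 for the latter. Whether it kept the AKT2 count of D10000 replicate 27 was not checked.

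**Figure D1:**
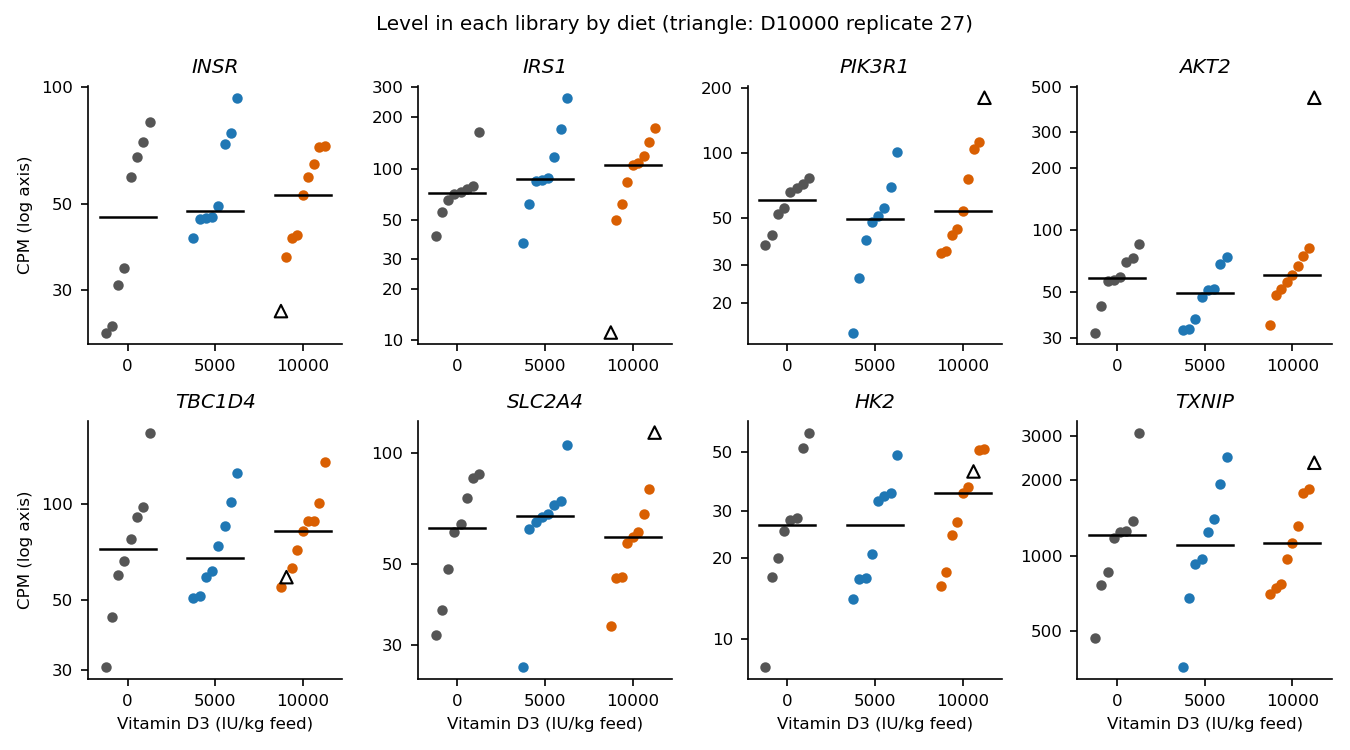
Level of the 8 tested members in each library (CPM, log axis) by vitamin D3 in feed (IU/kg). Points are libraries sorted within each diet, bars are medians and the triangle is D10000 replicate 27. The diets overlap in every panel, and the triangle is the highest point for AKT2 (442 CPM), PIK3R1 (180 CPM) and SLC2A4 (113 CPM) and the lowest for IRS1 (11.1 CPM).

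TBC1D4 (ENSSSCG00000009464), also called AS160, encodes the Rab GTPase-activating protein that holds GLUT4 vesicles inside the cell until AKT phosphorylates it. TBC1D4 had lowest, median and highest levels of 30.7, 72.0 and 168 CPM in control, 50.6, 67.6 and 124.9 CPM in D5000, and 55.0, 82.2 and 136 CPM in D10000. In CPM, control held both the highest and the lowest library, so that the ranges of both supplemented diets lay inside it. With TMM scaling D5000 replicate 6 was the highest (log2 CPM 7.14). The fold change was 0.967 at 5000 IU/kg (95% interval 0.657 to 1.42) and 0.965 at 10000 IU/kg (0.663 to 1.41).

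SLC2A4 (ENSSSCG00000023915) encodes GLUT4, the transporter that insulin and contraction bring to the surface of the muscle fibre. Its lowest, median and highest levels were 32.03, 62.4 and 87.4 CPM in control, 26.1, 67.5 and 105 CPM in D5000, and 33.8, 59.1 and 113 CPM in D10000. The 3 medians lay close together within ranges that overlapped. The fold change was 1.03 at 5000 IU/kg (95% interval 0.657 to 1.61) and 0.898 at 10000 IU/kg (0.581 to 1.39).

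HK2 (ENSSSCG00000008261) encodes the hexokinase that insulin induces in muscle and that phosphorylates incoming glucose. HK2 had lowest, median and highest levels of 7.84, 26.5 and 58.9 CPM in control, 14.0, 26.7 and 48.6 CPM in D5000, and 15.7, 35.1 and 51.1 CPM in D10000. In CPM, the D10000 median was above the other 2, but both supplemented ranges lay inside that of control. With TMM scaling D10000 replicate 30 was the highest (log2 CPM 5.97). The fold change was 0.942 at 5000 IU/kg (95% interval 0.562 to 1.58) and 1.04 at 10000 IU/kg (0.628 to 1.71).

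TXNIP (ENSSSCG00000031262) encodes an arrestin-family protein that binds thioredoxin and restrains glucose uptake, and its transcription follows glucose supply. TXNIP had lowest, median and highest levels of 470, 1206 and 3091 CPM in control, 359, 1105 and 2465 CPM in D5000, and 701, 1128 and 2345 CPM in D10000. The libraries of each diet spread over several-fold and the ranges overlapped. The fold change was 0.982 at 5000 IU/kg (95% interval 0.593 to 1.63) and 0.937 at 10000 IU/kg (0.574 to 1.53).

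**Figure D2:**
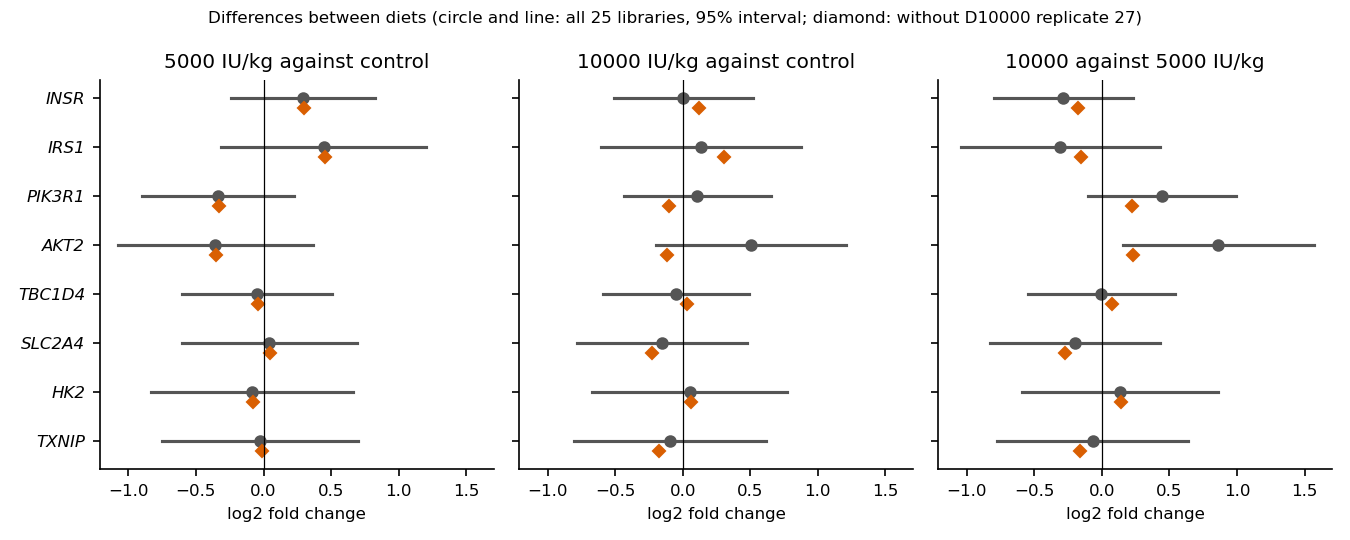
Log2 fold changes of the 8 tested members in the 3 contrasts of diets. Circles and lines are edgeR estimates with 95% intervals from all 25 libraries, and diamonds are estimates without D10000 replicate 27. Every interval spans 0 except that of AKT2 for 10000 against 5000 IU/kg, where the estimate went from 0.86 to 0.23 without that library.

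The intervals set what these libraries could show. At 5000 IU/kg 3 of the 8 members had a log2 fold change above 0, and the median was -0.037, beside 51% of all tested genes above 0 and a median of 0.011. At 10000 IU/kg 5 of 8 were above 0, with a median of 0.028, beside 57.2% and 0.068 for all tested genes. For 10000 against 5000 IU/kg 3 of 8 were above 0, with a median of -0.035, beside 54.6% and 0.044. Without D10000 replicate 27, 4 of 8 were above 0 at 10000 IU/kg with a median of -0.033, beside 51.8% and 0.020 for all tested genes. For 10000 against 5000 IU/kg it was then 4 of 8 with a median of -0.041, beside 50.0% and -0.00027. Scaling by total counts, chosen after seeing the data, moved the median of all tested genes at 10000 IU/kg to 0.24, a shift of 0.17. Under it TBC1D4, SLC2A4 and TXNIP had log2 fold changes of 0.06, 0.03 and 0.01 at 10000 IU/kg, below that median.

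D10000 replicate 27 differed from the other libraries in several members at once. In CPM, it had the highest AKT2, PIK3R1 (3.40 times the median of the others) and SLC2A4 (1.80 times), and the lowest IRS1 (0.131 times). TXNIP was at 2345 CPM, with 2 libraries higher. INSR, at 26.5 CPM, had 2 libraries lower, while TBC1D4 at 58.9 CPM and HK2 at 42.2 CPM lay within the range of the rest. With TMM scaling AKT2 and PIK3R1 were still the highest and IRS1 the lowest. SLC2A4 was then at a log2 CPM of 6.47, below control replicate 10 (6.98) and D5000 replicate 25 (6.76) among others. INSR, at 4.38, was then the lowest, with control replicate 14 next at 5.04.

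The same library stood out in other genes of the pathway. TRARG1, a protein of GLUT4 vesicles in fat cells, was at 4680 CPM against at most 20.1 CPM elsewhere, and HK1, the hexokinase of most tissues, at 381 CPM against at most 27.5 CPM. MLXIPL, the glucose-responsive transcription factor ChREBP, was at 224 CPM against at most 37.3 CPM. PRKAA2, the catalytic AMPK subunit that predominates in muscle, was at 6.92 CPM against at least 63.4 CPM. Beside these, ADIPOQ, the fat cell hormone adiponectin, was at 1234 CPM against at most 52.9 CPM. The part of fat cells in these member levels was not tested.

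D5000 replicate 6 and control replicate 3 were at the ends of several ranges in CPM too. D5000 replicate 6 had the highest INSR of the 25 libraries (93.6 CPM), the lowest PIK3R1 (14.7 CPM) and the lowest SLC2A4 (26.1 CPM). Control replicate 3 had the highest TBC1D4 (168 CPM), HK2 (58.9 CPM) and TXNIP (3091 CPM), and the second lowest SLC2A4 (32.03 CPM). With TMM scaling the highest log2 CPM lay elsewhere. TBC1D4 was at 7.14 in D5000 replicate 6 against 7.02 in control replicate 3. HK2 was at 5.97 in D10000 replicate 30 against 5.52, and TXNIP at 11.24 in D5000 replicate 5 against 11.23. SLC2A4 was then lowest in D10000 replicate 2 (4.60), while D5000 replicate 6 kept the highest INSR (6.72) and the lowest PIK3R1 (4.07).

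Across libraries, the members were compared with each other and with 5 measures of the libraries, using log2 CPM centred within diets and permutations within diets. The 28 pairs of members were taken up after the data had been seen. TBC1D4 and TXNIP varied together: r was 0.64 (two-sided permutation p = 0.00082, adjusted p = 0.0230 over 28 pairs) and rho was 0.65 (adjusted p = 0.0204). The relation was r = 0.53 without the 2 libraries farthest from the median, 0.77 without D10000 replicate 27 and 0.70 with scaling by total counts. In a permutation test within the 18 libraries with a low ratio of APOC3 to ALB counts it was 0.78 (adjusted p = 0.0084). Within the 7 with a high ratio, which include D10000 replicate 27, it was -0.11 (permutation p = 0.875). Without the 2 of these farthest in TBC1D4, D10000 replicates 26 and 30, it was 0.80, with no p computed. D10000 replicate 27 was then the only D10000 library, and centring within diets left it no weight in r.

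IRS1 and TBC1D4 also varied together, with r = 0.55 (permutation p = 0.00286, adjusted p = 0.0400) and rho = 0.51 (adjusted p = 0.134). Without D10000 replicate 27 r was 0.50 with an adjusted permutation p of 0.265, so that the call was lost without that library. By total counts it was 0.54 (adjusted permutation p = 0.00974), and 0.58 (adjusted p = 0.0231) without it. With TMM r was 0.32 in the 18 low-ratio libraries. In the 7 high-ratio libraries, which include D10000 replicate 27, it was 0.91 (adjusted permutation p = 0.534). Without the 2 of these farthest in IRS1, D10000 replicates 26 and 27, it was 0.35. TBC1D4 and SLC2A4 had r = -0.44 (adjusted permutation p = 0.130), and -0.69 (adjusted p = 0.00308) with scaling by total counts. With TMM and without 5 libraries (D10000 replicate 27 and the 4 with under 45% of reads assigned) it was -0.71 (adjusted permutation p = 0.0195), so that the call came and went with the scaling and with the libraries. IRS1 and SLC2A4 had r = -0.35, and by total counts -0.64 (adjusted permutation p = 0.00672), which was -0.55 (adjusted p = 0.0747) without D10000 replicate 27.

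**Figure D3:**
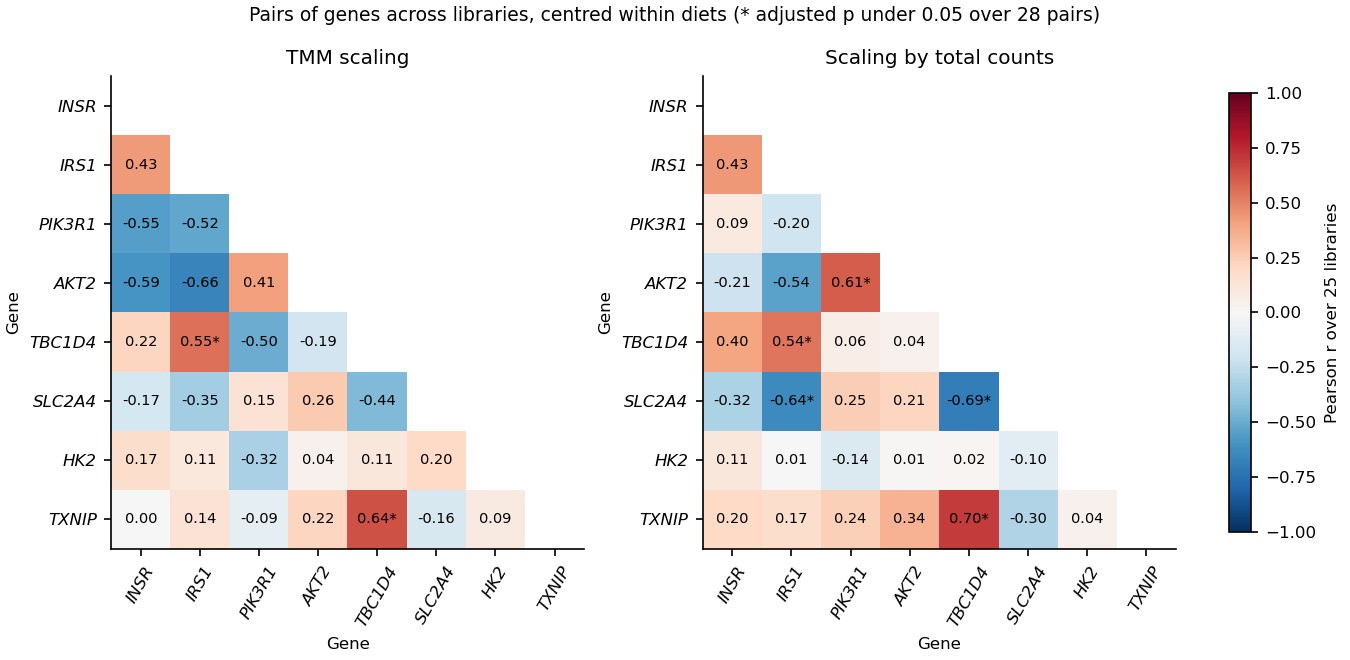
Pearson r of each pair of members over 25 libraries (colour and number; gene names on both axes), with TMM scaling at left and total-count scaling at right. Asterisks mark an adjusted permutation p under 0.05 over 28 pairs. TBC1D4 with TXNIP (0.64 and 0.70) and IRS1 with TBC1D4 (0.55 and 0.54) are marked in both panels.

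**Figure D4:**
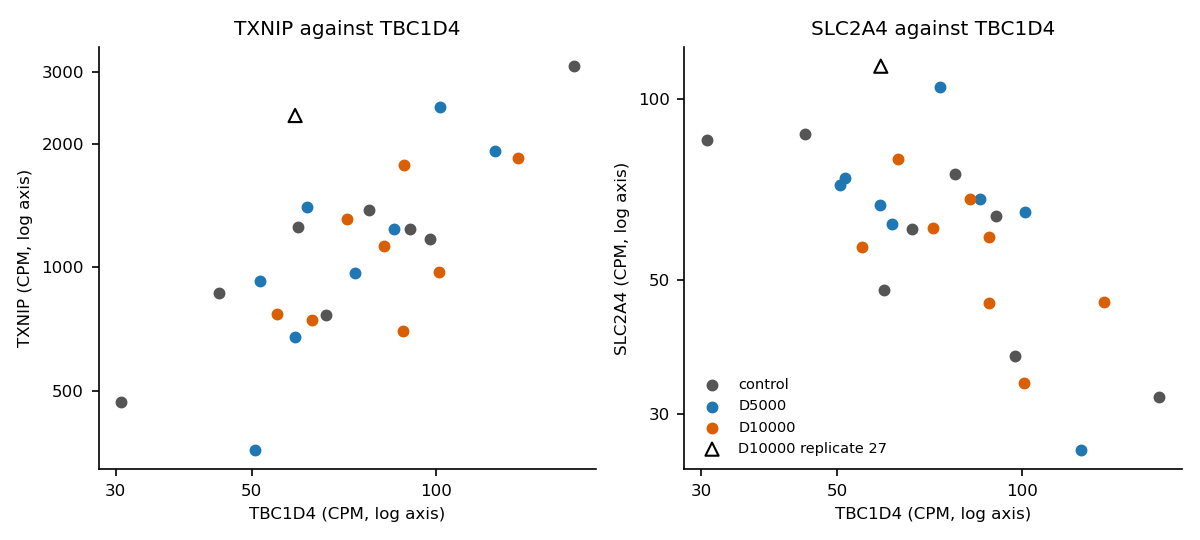
TXNIP and SLC2A4 against TBC1D4 in each library (CPM, log axes), coloured by diet, with a triangle for D10000 replicate 27. Libraries with high TBC1D4 tend to have high TXNIP, and control replicate 3 is at the far end of both (168 and 3091 CPM).

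SLC2A4 followed the share of reads assigned to genes. Of 40 relations of members with library measures, 2 had an adjusted p under 0.05 by r and 0 by rho. SLC2A4 against that share had r = 0.61 (permutation p = 0.00203, adjusted p = 0.0406) and rho = 0.58 (adjusted p = 0.076). It was 0.51 (adjusted permutation p = 0.178) without the 2 farthest libraries and 0.63 (adjusted p = 0.0756) without D10000 replicate 27. It was 0.61 within the 7 high-ratio libraries and 0.62 within the 18 low-ratio libraries, and was called in neither set. With scaling by total counts it was 0.23 (adjusted permutation p = 0.481).

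AKT2 was lower where liver transcripts were higher, with r = -0.63 (permutation p = 0.0014, adjusted p = 0.0406) and rho = -0.60 (adjusted p = 0.076). It was -0.42 (adjusted permutation p = 0.385) without the 2 farthest libraries and -0.49 (adjusted p = 0.181) without D10000 replicate 27, so that the call was lost without that library. It was -0.63 within the low-ratio set and -0.85 (permutation p = 0.292) within the 7 libraries of the high-ratio set, which include that library, and -0.10 with scaling by total counts. Neither this relation nor that of SLC2A4 was called under any alternative tried.

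The libraries fell apart by the ratio of APOC3 to ALB counts, transcripts of an apolipoprotein and of albumin, into 7 libraries at 0.0944 to 0.261 and 18 at 0.00992 to 0.04998. The 7 comprised 2 control, 2 D5000 and 3 D10000 libraries, and the labels give no reason for the split. It ran along the animal numbers: the 7 lay between 23 and 30, and the 18 between 1 and 21 apart from D5000 replicate 25. What the order of the numbers stands for is not given, and its part in the differences between the sets was not tested. SLC2A4 had its lowest, median and highest levels at 68.3, 79.6 and 113 CPM in the 7 and at 26.1, 59.97 and 85.4 CPM in the 18. In CPM, all 7 were above the median of the 18, and 2 of the 18 were above the lowest of the 7. With TMM scaling the sets overlapped more. The 7 then ran from a log2 CPM of 5.82 (control replicate 23) to 6.62 (D10000 replicate 30). Control replicate 10 (6.98) and D5000 replicate 25 (6.76), of the 18, lay above all 7. The share of all genes that separate so was not computed. The log2 difference was 0.54 ± 0.27 (SE; unadjusted p = 0.0531, adjusted p = 0.522 in edgeR), and 0.65 ± 0.22 (adjusted p = 0.236) by total counts. For IRS1 it was -0.68 ± 0.34 (adjusted p = 0.521 in edgeR). Between the sets 0 of 8 members were called, where 0.409% of tested genes were, and 0 had an unadjusted p under 0.05, where 9.69% did. By total counts 0 were called and 3 had an unadjusted p under 0.05 in edgeR: SLC2A4 (0.00654), IRS1 (0.0335) and AKT2 (0.0435).

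**Figure D5:**
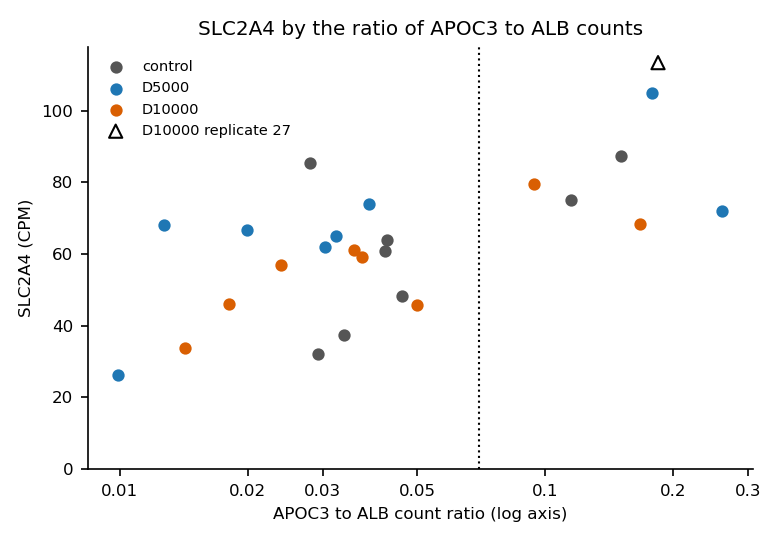
SLC2A4 (CPM) against the ratio of APOC3 to ALB counts (log axis) in each library, coloured by diet, with a triangle for D10000 replicate 27 and a dotted line at the split of 0.07. The 7 libraries right of the line are at 68.3 to 113 CPM. CPM is not scaled by TMM, and with that scaling the sets overlapped more.

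The genes whose levels were ordered most like each member over the 25 libraries, by Spearman's rho, share the libraries, their depth and their scaling. For SLC2A4 they were PRPS1 (rho = 0.92) and CHCHD2 (0.91), the closest likeness of any member. For AKT2 they were DYNLL2 (0.83) and KCNAB3 (0.82), for IRS1 FAM43A (0.80) and TENT5C (0.75), and for TBC1D4 SLC12A2 (0.79) and GMEB1 (0.74). For INSR they were ZFHX3 (0.73) and ZNF483 (0.71), for HK2 PLXDC1 (0.74) and HAUS1 (0.73), for TXNIP RIC3 (0.71) and UBL7 (0.71), and for PIK3R1 IQGAP1 (0.65) and GNAI1 (0.64). Each was picked as the highest among all tested genes with a symbol, and the median rho of a member with all tested genes was -0.025 (IRS1) to 0.035 (AKT2). With scaling by total counts the rho of SLC2A4 was 0.82 with PRPS1 and 0.67 with CHCHD2. That of HK2 with HAUS1 was 0.52 and that of PIK3R1 with GNAI1 0.70. Many genes were then nearer to PIK3R1 than GNAI1, so that the nearest genes depend on the scaling.

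Other genes of the pathway were read from 6 lists, in which 0 genes were called at an adjusted p under 0.05 in any contrast. Among 21 tested genes between the receptor and AKT, 13 had a log2 fold change above 0 at each dose, with medians of 0.08 and 0.17. Of all tested genes, 51.0% were above 0 at 5000 IU/kg and 57.2% at 10000 IU/kg, with medians of 0.011 and 0.068. Without D10000 replicate 27 the values at 10000 IU/kg were 12 of 21 and 0.056, beside 51.8% and 0.020 for all tested genes. IGF1R, the receptor of insulin-like growth factor, had 1.18 ± 0.61 (SE) at 5000 IU/kg and 1.34 ± 0.60 at 10000 IU/kg. Its lowest, median and highest levels were 0.111, 2.17 and 10.3 CPM in control, 2.21, 4.22 and 30.5 CPM in D5000, and 1.497, 4.14 and 38.97 CPM in D10000, so that the ranges overlapped at low counts. INPP5K, a phosphatase of the lipid that activates AKT, had 1.19 at 10000 IU/kg and -0.30 without D10000 replicate 27.

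Among 16 tested AKT targets and genes of the mTOR branch, 5 were above 0 at 5000 IU/kg and 7 at 10000 IU/kg. The count at 10000 IU/kg was 8 without D10000 replicate 27. EIF4EBP1, the repressor of translation that mTOR phosphorylates, had a log2 fold change of -0.37 at 5000 IU/kg and -0.55 ± 0.30 (SE) at 10000 IU/kg. TSC2, which restrains mTOR, had -0.04 and -0.58. Without D10000 replicate 27, 2 of the 16 were lower at 10000 IU/kg at an unadjusted p under 0.05 in edgeR. They were TSC2 with -0.92 ± 0.44 (SE) and RPTOR, a subunit of the mTOR complex named after its values were seen, with -0.92 ± 0.32. In the same fit 52 of all 10876 tested genes were lower and 139 higher at that limit. Among 18 genes of GLUT4 vesicle traffic 10 were above 0 at each dose. With D10000 replicate 27 left out, 7 of 17 were above 0 at 10000 IU/kg. TRARG1 had 6.71 at 10000 IU/kg and 0.51 without D10000 replicate 27, and RAB13, a Rab GTPase that TBC1D4 acts on, had 1.29 and 0.19.

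Among 19 tested genes of glucose entry, trapping and glycogen, 8 were above 0 at 5000 IU/kg and 7 at 10000 IU/kg. The count at 10000 IU/kg was 9 without D10000 replicate 27. PPP1R3C, which targets protein phosphatase to glycogen, had its lowest, median and highest levels at 41.7, 93.8 and 329 CPM in control and at 113, 221 and 555 CPM in D5000. Its log2 fold change was 1.00 ± 0.45 (SE) at 5000 IU/kg and 0.38 at 10000 IU/kg, and the ranges overlapped. HK1 had 1.59 at 10000 IU/kg and -0.19 without D10000 replicate 27.

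Among 13 tested relatives and partners of TXNIP, 7 were above 0 at 5000 IU/kg and 6 at 10000 IU/kg. The count at 10000 IU/kg was 7 without D10000 replicate 27. ARRDC3, an arrestin of the same family, had a log2 fold change of 0.02 at 5000 IU/kg and 0.95 ± 0.44 (SE) at 10000 IU/kg. Its lowest, median and highest levels were 10.1, 23.6 and 39.9 CPM in control and 17.1, 28.4 and 161 CPM in D10000. The ranges overlapped and the medians lay close together. MLXIPL had 1.24 at 10000 IU/kg and 0.19 without D10000 replicate 27. Among 11 tested AMPK genes, 7 were above 0 at 5000 IU/kg and 4 at 10000 IU/kg. With D10000 replicate 27 left out, 7 of the 11 were above 0 at 10000 IU/kg. PRKAA2 had 0.54 and 0.33 (0.51 without D10000 replicate 27), and CAB39, a partner of the kinase that activates AMPK, had -0.58 and -0.22 (-0.05 without it).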

How the data were processed

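Muscle RNA of 25 pigs was extracted with a Total RNA Mini kit and made into QuantSeq libraries, per the labels' protocols. The deposited values were raw counts per Ensembl gene identifier for each library; the submitters' processing notes name FastQC, and the aligner, counter, build and annotation are not given in the sources used here. Rows that name no gene were left out of library sizes, so that 24.9% to 70.6% of the reads in a file were used. Counts were filtered with filterByExpr (minimum count 10), scaled by TMM and tested in 1 fit of all 25 libraries with edgeR 4.0.16 (R 4.3.3, quasi-likelihood, robust) with Benjamini-Hochberg adjustment over 10992 genes. DESeq2 1.42.0 and limma 3.58.1 (voom) were alternatives. The fit was tested on simulated counts. Fold intervals are 95%.

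Relations used log2 CPM (prior count 2) and 100000 permutations within diets, adjusted over 40 relations or 28 pairs. Besides the members, the genes named were the 2 nearest to each member by rho and the 2 of each list with the smallest joint p. The genes named for D10000 replicate 27 (TRARG1, HK1, MLXIPL, PRKAA2, ADIPOQ, ACTA1) were picked from the lists for their values there. The members and lists were chosen with earlier results of these data known. Litters are not in the labels, so that p-values measure the spread between pigs and ignore litter.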

Additional observations from a re-analysis of the deposited data

Results flagged for a closer look

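In 3 of 24 combinations of a tested member and a diet, 1 library lay far from the others on the log2 CPM scale by Dixon's criterion, which chance meets in about 5% of groups. IRS1 was at 3.15 in D10000 replicate 27, where the next lowest D10000 library was at 5.61. AKT2 was at 8.43 in the same library, where the next highest was at 6.54. PIK3R1 was at 4.07 in D5000 replicate 6, where the next lowest D5000 library was at 5.24.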

How the results depend on the processing

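No paired analysis was possible because the replicate numbers are animal numbers that the diets do not share and the labels do not give litters. Over 34 alternatives for each of 24 member contrasts (25 leave out 1 library, 9 change a setting), 726 of 816 log2 fold changes kept their direction and 90 turned, with a smallest adjusted p of 0.301. The 25 include libraries of the diet outside the contrast. Leaving those out acts only through the scaling, the filter and the shared spread, so that a kept direction there says little. No gene was called for any contrast of diets under any of the alternatives.

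At 5000 IU/kg against control, the assigned share as a covariate gave TBC1D4 0.0082, HK2 0.0074 and TXNIP 0.072, and the fibre-type markers as a covariate gave SLC2A4 -0.016. Leaving out 5 libraries (D10000 replicate 27 and the 4 with under 45% of reads assigned, chosen after seeing the data) gave TBC1D4 0.10, HK2 0.17 and TXNIP 0.083. Leaving out 1 library gave TBC1D4 -0.22 to 0.089, SLC2A4 -0.083 to 0.23, HK2 -0.28 to 0.070 and TXNIP -0.23 to 0.17.

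At 10000 IU/kg against control, limma-voom gave INSR -0.022, IRS1 -0.073 and PIK3R1 -0.012, and DESeq2 gave AKT2 -0.13. Without the 5 libraries PIK3R1 was -0.29, AKT2 -0.025, TBC1D4 0.11 and TXNIP 0.034. TBC1D4 was 0.0023 with the assigned share, 0.060 by total counts and 0.021 with the APOC3 to ALB set as a second term. By total counts SLC2A4 was 0.034 and TXNIP 0.011, and with the APOC3 to ALB set HK2 was -0.0019. Leaving out 1 library gave INSR -0.085 to 0.12, PIK3R1 -0.10 to 0.18, AKT2 -0.12 to 0.65, TBC1D4 -0.17 to 0.095, SLC2A4 -0.27 to 0.032, HK2 -0.13 to 0.21 and TXNIP -0.19 to 0.12.

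For 10000 against 5000 IU/kg, TBC1D4 was 0.017 with RLE scaling and with DESeq2, 0.019 with the fibre-type markers, 0.031 by voom, 0.0027 with no filter, 0.12 by total counts, 0.057 with the APOC3 to ALB set and 0.011 without the 5 libraries. TXNIP was 0.0028 by voom, 0.050 by total counts and 0.035 with the APOC3 to ALB set. Leaving out 1 library gave TBC1D4 -0.12 to 0.17, HK2 -0.043 to 0.33 and TXNIP -0.21 to 0.14. The cause of these turns was not tested.

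The 2 calls among 40 relations with library measures became 0 with RLE scaling, with total counts, without D10000 replicate 27, without the 2 farthest libraries, without the 5 libraries and within either APOC3 to ALB set. The 2 calls among 28 pairs became 1 with RLE scaling, without D10000 replicate 27 and in the low-ratio set, 5 by total counts (3 without D10000 replicate 27) and 0 in the high-ratio set, where TBC1D4 with TXNIP was -0.11. Without the 5 libraries there were again 2, TBC1D4 with TXNIP and, in place of IRS1 with TBC1D4 (adjusted permutation p = 0.0818), TBC1D4 with SLC2A4. Depth sets the floor of IRS2, which was up to 0.613 CPM in libraries at 0. D5000 replicate 18 and D10000 replicate 2, with 44 and 9 counts of IRS2, had the fewest gene-assigned counts of their diets, 4328704 and 3310507.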
